A study of Mus musculus with 72 samples.

Results

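The 10 genes described here were 4 classical cadherins, Cdh1 (E-cadherin), Cdh2 (N-cadherin), Cdh3 (P-cadherin) and Cdh11 (OB-cadherin), and 6 transcription factors of the epithelial-mesenchymal transition (EMT), Snai1, Snai2, Zeb1, Zeb2, Twist1 and Twist2. They were chosen by name, and all 10 were found by Ensembl identifier among the 50600 genes of the count table. RNA was sequenced from 6 mouse melanoma cell lines, each under 4 treatments with 3 replicates, which gave 72 libraries. Serum-starved cells (18 h) were treated for 4 h in 0.5% serum with 0.1% DMSO (mock), with 10 nM gastrin-releasing peptide (GRP), with 1 µM RC-3095 (RC), which is an antagonist of the GRP receptor GRPR, or with GRP and RC together. The question was what GRP does to transcription in cells that carry GRPR, and whether RC prevents it.

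Every line carried Tyr::NRASQ61K/°, an activated NRAS driven by the tyrosinase promoter and so directed to melanocytes. Lines 1057 and 1064, from females, also carried Cdkn2a-/-, Tyr::CreA/° and Cdh1dF/dF, and the labels give both as positive for GRPR. Lines 1181-Ctrl and 1181-Grpr, from a male, were labelled Cdkn2a-/- and Cdh1dF/dF with no Cre. Lines 1014-Ctrl and 1014-Grpr, from a female, had neither Cdkn2a-/- nor a Cdh1 allele in their label. The Ctrl versions held a CMV vector for turbo GFP (CMV::tGFP) and the Grpr versions one for GRPR joined to it (CMV::Grpr/tGFP). GRPR under the CMV promoter is not under its own regulation, and each line stands for 1 tumour, so a difference between lines is a difference between these lines and not between genotypes.

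In GENCODE M21 on GRCm38, Cdh3 (ENSMUSG00000061048, chr8:106510891-106557297) lay 46053 bases upstream of Cdh1 (ENSMUSG00000000303, chr8:106603351-106670246) on the plus strand of the same chromosome, which also held Cdh11 (ENSMUSG00000031673, chr8:102632095-102785642). Cdh2 (ENSMUSG00000024304, chr18:16588877-16809246) and Zeb1 (ENSMUSG00000024238, chr18:5591860-5775467) shared another chromosome. Zeb2 (ENSMUSG00000026872, chr2:44983632-45117395) and Snai1 (ENSMUSG00000042821, chr2:167538195-167542814) lay far apart on chromosome 2. The others were Snai2 (ENSMUSG00000022676, chr16:14705852-14709385), Twist1 (ENSMUSG00000035799, chr12:33957671-33959829) and Twist2 (ENSMUSG00000007805, chr1:91801461-91848028). The libraries were stranded, but whether the counts used the strand was not given in the sources used here. An antisense gene, Gm29100, covers 46.5% of the exon bases of Twist2, and Zeb2os covers 3.27% of those of Zeb2, so Twist2 counts in particular carry that uncertainty.

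Classical cadherins join neighbouring cells through contacts between like molecules and are anchored to actin by catenins. Melanocytes use E-cadherin and P-cadherin to adhere to keratinocytes, and a switch from E-cadherin to N-cadherin is a textbook feature of melanoma progression. SNAIL, ZEB and TWIST factors repress the E-cadherin gene through E-box sequences in epithelial cells, while in the melanocyte lineage ZEB2 and SNAI2 belong to the differentiated state and ZEB1 and TWIST1 to the undifferentiated one.

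Promoter sequence is shown for 3 of the factors because they carry the main patterns below: Zeb2, which rose under GRP, and Snai1 and Twist1, which were highest in line 1057. Each line gives the 250 bases before the first start that RefSeq lists on GRCm38.p6, 5′ to 3′ on the gene's own strand. Capitals mark matches on either strand to 3 motifs that were searched, the E-box CACCTG, the AP-1 motif TGANTCA and the TEAD motif GGAATG.
Zeb2: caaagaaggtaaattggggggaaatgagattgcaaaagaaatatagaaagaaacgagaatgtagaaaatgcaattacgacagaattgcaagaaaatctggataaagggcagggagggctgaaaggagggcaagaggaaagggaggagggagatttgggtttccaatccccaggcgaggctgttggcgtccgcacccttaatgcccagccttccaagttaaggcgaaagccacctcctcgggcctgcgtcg
Snai1: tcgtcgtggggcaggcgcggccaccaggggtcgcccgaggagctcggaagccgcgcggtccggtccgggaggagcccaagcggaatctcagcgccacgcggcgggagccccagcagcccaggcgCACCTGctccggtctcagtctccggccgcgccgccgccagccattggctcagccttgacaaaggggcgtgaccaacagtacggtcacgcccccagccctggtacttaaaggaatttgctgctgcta
Twist1: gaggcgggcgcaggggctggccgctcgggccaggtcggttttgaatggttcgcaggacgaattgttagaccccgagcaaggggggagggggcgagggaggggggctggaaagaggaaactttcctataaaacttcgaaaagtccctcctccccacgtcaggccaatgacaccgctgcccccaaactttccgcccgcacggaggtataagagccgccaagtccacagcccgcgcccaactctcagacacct
The window of Zeb2 is chr2:45117443-45117692 on the minus strand, that of Snai1 is chr2:167537945-167538194 and that of Twist1 is chr12:33957421-33957670, both on the plus strand. CACCTG was found once, 126 bases before the start of Snai1, and not in these windows of Zeb2 and Twist1. Of all 32851 windows of this length, 17.2% hold CACCTG, 6.75% hold TGANTCA and 12.6% hold GGAATG. Before the fourth start listed for Zeb2, TGANTCA was found at 189 and 132 bases and GGAATG at 157 bases. That window overlaps exons of other Zeb2 transcripts and is not printed. A match describes the letters and is not evidence of binding.

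The 70 libraries used held 19512882 to 46862053 counts each, so that 3 counts, taken as the floor of detection, came to 0.160 CPM (counts-per-million) or less. Of the 72 libraries, 2 went against their labels and were left out, 1014-Ctrl mock replicate 2 and 1181-Grpr GRP+RC replicate 2. The first held 1165 counts of Grpr and 1557 of the Y-linked Ddx3y, where the other 1014-Ctrl libraries held at most 1 and 0. The second held 0 of both, where the other 1181-Grpr libraries held at least 216 and 1001. Elsewhere Grpr followed the labels, at 0 to 2 counts in the control lines and 216 to 27942 in the others. Line 1181-Grpr, labelled male, also held 4616 to 8931 counts of Xist, against 1 to 20 in 1181-Ctrl. The melanocyte list (8 genes, among them Mitf, Sox10, Pmel and Tyr) was above the floor for 8 of 8 genes in every line, and its summed level ran from 7372 to 56807 TPM (transcripts-per-million), the deposited unit that corrects for gene length. Lists of 4 keratinocyte, 5 fibroblast and 3 endothelial genes summed to at most 6.09, 13.5 and 4.73 TPM. A list of 3 immune genes reached 100.1 TPM in 1181-Ctrl, nearly all of it Cd68, with Ptprc and Cd3e at or near 0 in every line. In bulk RNA, fewer cells that express a gene and less RNA in each cell cannot be told apart.

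Which line the cells came from set the level of these genes far more than what they were treated with. Of the variance of log2 CPM over 70 libraries, line accounted for 85% (Cdh2) to 99.2% (Twist1) in the 9 members that passed the filter on low counts, beside a median of 81.3% over all 16901 genes. Treatment within lines accounted for 0.197% (Twist1) to 5.37% (Zeb2), beside a median of 4.31%, and Zeb2 was the only member above that median. Cdh3 did not pass the filter. It had 0 to 5 counts in any library and 0 in all 12 libraries of 1064.

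**Figure D1:**
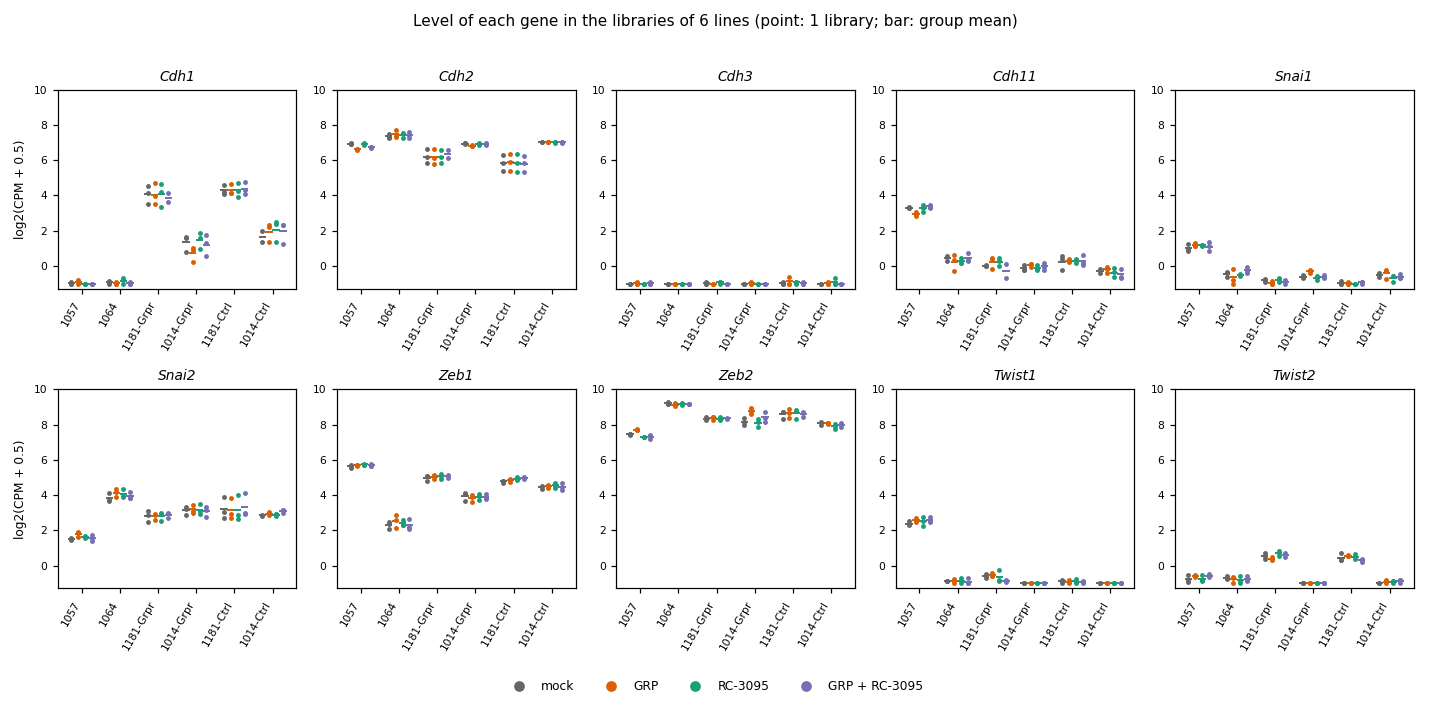
Level of the 10 genes in the 70 libraries, as log2(CPM + 0.5), by line (x axis) and treatment (colour). Each point is 1 library and each short bar a group mean. Cdh1 lies at the bottom of the axis in 1057 and 1064, Twist1 stands out in 1057, Cdh3 lies at the bottom throughout, and treatments within a line differ little.

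Cdh1, the main adhesion molecule between melanocytes and keratinocytes, was nearly absent from both lines with Cre and present in the 4 without it. Its counts in the 3 mock libraries were 0, 1 and 0 in 1057 and 0, 1 and 1 in 1064. They were 460, 778 and 366 in 1181-Ctrl, 616, 553 and 308 in 1181-Grpr, 89 and 55 in the 2 libraries used of 1014-Ctrl, and 74, 87 and 28 in 1014-Grpr. Over all treatments 1057 had 4 counts in 12 libraries and 1064 had 9, with no library above 3. In CPM, the 12 libraries of 1181-Ctrl had 1909 times the Cdh1 of 1057, with an exact 95% interval of 745 to 7008. The smallest contrast was that of 1014-Grpr with 1064, at 60.7 times, with an interval of 31.8 to 133. These intervals cover counting error only. The lines 1181-Ctrl and 1181-Grpr thus had Cdh1 transcript under a label that also reads Cdh1dF/dF. The paper lists 1181 as E-cadherin-positive, and it writes the Cdh1 genotype of its E-cadherin-positive mice, which lack Cre, as Cdh1F/F.

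Among the lines with Cdh1, the level was not uniform. At mock it was 19.4 ± 3.81 CPM (SD, n = 3) in 1181-Ctrl and 17.1 ± 6.16 in 1181-Grpr, whose libraries overlapped. It was 2.71 ± 0.951 (n = 2) in 1014-Ctrl and 2.12 ± 0.767 (n = 3) in 1014-Grpr, which also overlapped, and all libraries of the 1181 lines lay above all of the 1014 lines. Cdh1 was called in 1181-Ctrl against 1014-Ctrl, with a log2 fold change of 2.84 ± 0.49 (SE, adjusted p = 2.96e-06, quasi-likelihood test of edgeR, adjusted by Benjamini-Hochberg).

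N-cadherin was high in all lines. At mock, Cdh2 ranged from 58.9 ± 19.3 CPM (n = 3) in 1181-Ctrl to 163.6 ± 13.1 (n = 3) in 1064. In the order of mock levels, 1064 stood above 1014-Ctrl (129.7 ± 0.957, n = 2) and 1014-Ctrl above 1014-Grpr (122 ± 2.08) without overlap, while 1014-Grpr and 1057 (121, 122 and 125 CPM) overlapped, as did 1181-Grpr (75.1 ± 21.5) and 1181-Ctrl. In TPM, which allows genes to be compared, Cdh2 stood at 28.4 against 16.4 for Cdh1 in 1181-Ctrl and at 45.6 against 0.00667 in 1057. Both 1181 lines, with the most Cdh1, thus had the least Cdh2. Within each of them, replicate 2 had the most Cdh1 and the least Cdh2 under each treatment with a library used. In 1181-Ctrl at mock it had 23.8 CPM of Cdh1 and 41.1 of Cdh2, where replicate 1 had 17.7 and 79.4. In TPM these libraries of 1181-Ctrl, at 19.6 of Cdh1 against 19.2 of Cdh2 under mock, were the only ones used in which Cdh1 was the higher of the pair.

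Neither gene was the main cadherin transcript. Of 19 cadherin genes summed in TPM at mock, Cdh19, a cadherin of neural crest and glial cells, made up 54.8% to 76.7% in 5 lines and 33.6% in 1057. Cdh2 made up 11.6% (1181-Ctrl) to 31.9% (1014-Ctrl), and Cdh1 7.05% or less. In 1057 the largest share, 42.6%, was that of Cdh6 (K-cadherin). Cdh11, which marks mesenchymal cells, reached 1.27% there, its highest share.

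**Figure D2:**
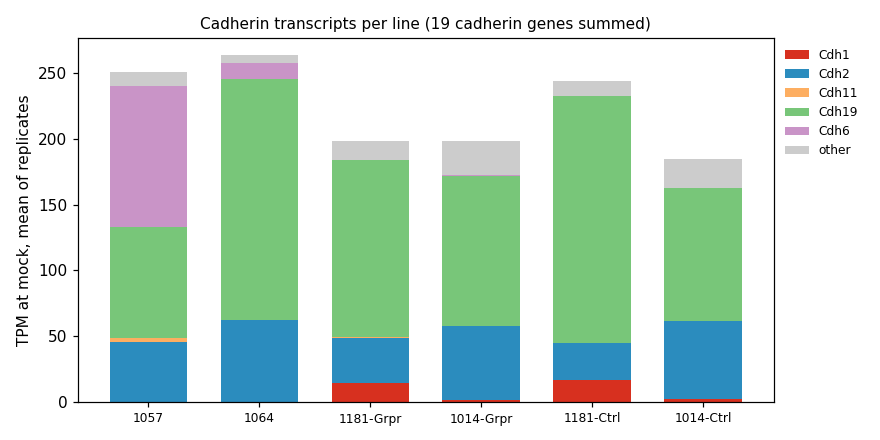
Summed TPM of 19 cadherin genes at mock (y axis, from 0) in each of 6 lines, as the mean of 3 replicates (2 in 1014-Ctrl), with genes in colour and error bars not drawn. Cdh19 forms the largest block except in 1057, where Cdh6 does, and Cdh1 is visible in the 1181 lines and as a thin band in the 1014 lines.

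The factors split the 2 lines with Cre. Of the 9 members tested between 1057 and 1064 at mock, 6 were called (adjusted p under 0.05 and a log2 fold change beyond 1 either way), beside 27.6% of all genes. Zeb1 was 11.1-fold higher in 1057 (log2 3.47 ± 0.15, adjusted p = 2.72e-25), at 50.3, 46.0 and 52.5 CPM against 3.63, 5.12 and 4.72. Cdh11 was higher in 1057 by a log2 fold change of 3.46 ± 0.32 (adjusted p = 2.63e-13) and Snai1 by 2.74 ± 0.47 (adjusted p = 1.9e-06). Zeb2 and Snai2 went the other way, with log2 fold changes of -1.76 ± 0.12 (adjusted p = 2.1e-17) and -2.57 ± 0.31 (adjusted p = 6.1e-10). For Twist1, 1057 had 168, 142 and 150 counts at mock and 1064 had 1 in each library. Over all treatments that was 119.7 times as much in 1057, with an exact 95% interval of 69.8 to 225 that covers counting error only. Line 1057 was thus high in Zeb1, Snai1, Twist1 and Cdh11, and 1064 in Zeb2 and Snai2. In each of these 6 genes, which are those called, the mock libraries of the 2 lines did not overlap. The share of all genes without overlap was not computed between lines.

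Set among all 6 lines, 1057 stood apart. It had the highest mock level of Zeb1, Snai1, Twist1 and Cdh11 and the lowest of Zeb2 (174 ± 2.70 CPM, n = 3) and Snai2 (2.32 ± 0.0898, n = 3), each without overlap with the next line. How many of all genes set 1057 apart in this way was not computed. Snai1 reached 1.54 ± 0.305 CPM in 1057 and 0.231 ± 0.0811 in 1064, the next. Twist1 had 0 counts in all 11 and 12 libraries of 1014-Ctrl and 1014-Grpr, where 1057 had 1990 counts in 12 libraries. Line 1064 held the highest Zeb2 (589 ± 20.1 CPM) and the lowest Zeb1 (4.49 ± 0.772), both without overlap. Its ratio of Zeb2 to Zeb1, in TPM at mock, was 67.8 ± 10.9, against 1.79 ± 0.101 in 1057 and 5.25 to 9.96 on average in the other 4 lines. By TPM, Zeb2 or Cdh2 was the most abundant member in every line.

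Twist2 was highest in the 1181 lines. It had 29, 25 and 16 counts in the mock libraries of 1181-Ctrl and 0 in both of 1014-Ctrl. Over all treatments 1181-Ctrl had 30.2 times the Twist2 of 1014-Ctrl, with an exact 95% interval of 15.7 to 66.6 that covers counting error only. All 12 libraries of 1014-Grpr had 0. Between these control lines 5 of 9 members tested were called, beside 26.6% of all genes: Cdh1, Twist2 and Cdh11 were higher in 1181-Ctrl, and Cdh2 and Snai1 lower. Cdh2 differed by a log2 fold change of -1.14 ± 0.23 (adjusted p = 3.52e-05). Snai1 had 0 or 1 count in each 1181-Ctrl library at mock and 7 and 4 in 1014-Ctrl. Cdh11 (log2 1.19 ± 0.44, adjusted p = 0.0215) lost its call without any 1 replicate number (adjusted p 0.0538, 0.187 and 0.062 without replicates 1, 2 and 3), and Snai1 lost its call without replicate 1 (0.131). Zeb2 passed the test below the fold threshold (log2 0.53 ± 0.14, adjusted p = 0.000928).

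As a contrast of both lines with Cre against both control-vector lines, 4 of 9 members tested were called, beside 28.6% of all genes. The p-values of this contrast cover the spread between libraries only, and not that between tumours. Cdh1 was lower, and Cdh11, Snai1 and Twist1 were higher. The last 3 followed 1057, since in 1064 their mock levels overlapped those of a control-vector line. Zeb1 averaged lower (log2 -0.68 ± 0.10, adjusted p = 1.61e-07) although 1057 had the highest Zeb1 of all lines, because 1064 had the lowest. Cdh2 passed the test at 0.70 ± 0.16 (adjusted p = 0.000139). Cdh1 was the one member that set both lines with Cre apart from all 4 others. It is the gene that Tyr::CreA deletes in the paper's model, so its call was set by the design. Genotype, Grpr and tumour cannot be told apart in this contrast.

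No member was called between a line with the GRPR vector and its control-vector line. Between 1014-Grpr and 1014-Ctrl at mock 0 of 9 members tested were called, beside 0.456% of all genes, with 1 at an unadjusted p under 0.05 in edgeR and 0 called by DESeq2. Between 1181-Grpr and 1181-Ctrl 0 of 9 were called, beside 8.98% of all genes, with 3 at an unadjusted p under 0.05 and 0 called by DESeq2. Since 1181-Grpr also held Xist, the vector and other differences between these lines cannot be told apart. The lowest adjusted p was that of Twist1 in the 1181 lines (0.0836), at 8, 4 and 3 counts in 1181-Grpr and 2, 0 and 1 in 1181-Ctrl. In the 1014 lines it was that of Zeb1, at log2 -0.48 ± 0.15 (adjusted p = 0.233).

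GRP moved the members tested by less than 2-fold. Over the 4 lines with GRPR, 25 pairs of member and line passed the filter and 0 were called, where edgeR gave 5 at an unadjusted p under 0.05, all 5 of which passed the adjusted threshold, and DESeq2 called 0 and passed 4. The share of all genes called in the same comparison was 6.46% for 1057, 4.01% for 1014-Grpr, 2.32% for 1064 and 0% for 1181-Grpr. By adjusted p alone it was 52.6% in 1057, 6.38% in 1064 and 29% in 1014-Grpr, beside 4 of 7 members in 1057, 0 of 5 in 1064 and 1 of 6 in 1014-Grpr. In the control lines 0 of 13 pairs passed, with 0 at an unadjusted p under 0.05 and 0 by DESeq2, and the share of all genes called was 0% in 1181-Ctrl and 0% in 1014-Ctrl.

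**Figure D3:**
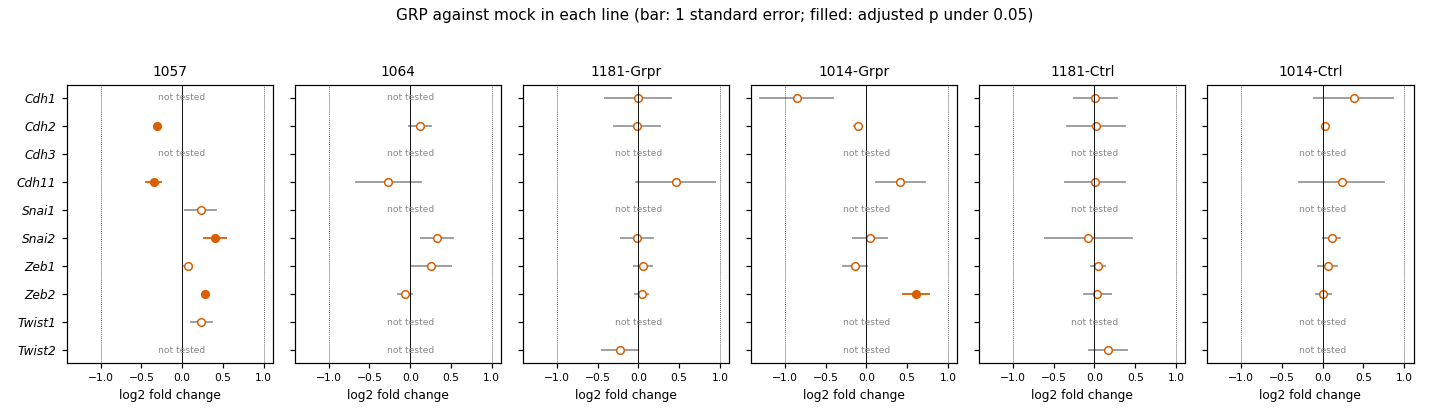
Log2 fold change of GRP against mock for each of the 10 genes (rows of points) in each of 6 lines (panels), with bars of 1 standard error. Filled points have an adjusted p under 0.05 and dotted lines mark a log2 fold change of 1 either way. Filled points appear for Cdh2, Cdh11, Snai2 and Zeb2 in 1057 and for Zeb2 in 1014-Grpr.

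Zeb2, a repressor that the melanocyte lineage expresses as it differentiates, rose in 2 of the 4 lines with GRPR. In 1057 its level was 173.1, 172.7 and 178 CPM under mock and 208, 208 and 211 under GRP, with no overlap. The log2 fold change was 0.29 ± 0.04 (adjusted p = 1.54e-05). In 1014-Grpr it was 248, 287 and 329 CPM under mock and 389, 419 and 494 under GRP, again with no overlap. The log2 fold change was 0.61 ± 0.15 (adjusted p = 0.0112), and it did not pass without replicate 2 (adjusted p = 0.111, where the alternatives ran from 1.6e-10 to 0.111). Fitted with the replicate number as a block, it was 0.61 ± 0.04 (adjusted p = 1.6e-10), in a fit where 53.6% of all genes passed. In 1064 and 1181-Grpr the log2 fold changes were -0.06 ± 0.08 (adjusted p = 0.72) and 0.04 ± 0.08 (adjusted p = 1).

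The rise of Zeb2 in 1014-Grpr was set against 1014-Ctrl, where the log2 fold change was 0.01 ± 0.09. The difference of the 2 effects was 0.61 ± 0.20 on the log2 scale (adjusted p = 0.0429), in a test that 16.8% of all genes passed. It did not pass without replicates 1, 2 and 3 in turn (adjusted p = 0.0667, 0.226 and 0.106), and with the replicate block it was 0.61 ± 0.10 (adjusted p = 9.05e-05), where 30.9% of all genes passed. The adjusted p of this difference ran from 1.27e-05 to 0.226 over the alternatives.

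Cdh2 and Cdh11 fell under GRP in 1057. Cdh2 stood at 121, 122 and 125 CPM under mock and at 97.7, 98.0 and 96.6 under GRP, with no overlap, and fell by 0.30 ± 0.03 on the log2 scale (adjusted p = 3.07e-07). Cdh11 stood at 9.28, 9.53 and 9.43 CPM and then at 7.81, 6.70 and 7.36, and fell by 0.35 ± 0.09 on the log2 scale (adjusted p = 0.00437). Snai2, a neural crest factor, was 2.30, 2.41 and 2.23 CPM under mock and 2.57, 3.28 and 3.15 under GRP, a log2 fold change of 0.40 ± 0.14 (adjusted p = 0.02). It did not pass without replicate 2 (0.0952), without replicate 3 (0.159) and by DESeq2 (0.0578), in a range of 0.0171 to 0.512 over the alternatives. These 4 genes, Zeb2 among them, were the 4 of 7 members tested whose mock and GRP libraries did not overlap in 1057, beside 57.9% of all genes. In a fit of all 70 libraries, whose spread is shared with the other lines, none of the 4 passed in 1057 (adjusted p from 0.147 to 0.512). Snai1, Zeb1 and Twist1 had log2 fold changes of 0.23, 0.07 and 0.24 there and did not pass.

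Cdh1 was counted at 74, 87 and 28 in the mock libraries of 1014-Grpr and at 39, 42 and 31 in its GRP libraries. In CPM that was 2.50, 2.62 and 1.24 against 1.55, 1.38 and 0.688, so that each replicate number was lower under GRP while the groups overlapped. The log2 fold change was -0.86 ± 0.44 (adjusted p = 0.173). With the replicate block it was -0.80 ± 0.19 (adjusted p = 0.00126, in a range of 0.00126 to 0.388 over the alternatives). In 1014-Ctrl the log2 fold change of Cdh1 was 0.38 ± 0.49, and the difference of the 2 effects was -1.24 ± 0.70 (adjusted p = 0.254). With the block that difference was -0.93 ± 0.22 (adjusted p = 0.0024), and it also passed with no filter on low counts (0.00242) and without replicate 3 (0.0369), in a range of 0.0024 to 0.762 over the alternatives. With both left-out libraries kept it was 0.57 and did not pass. Cdh2 in that line went from 120.1, 124 and 123 CPM to 116, 113 and 109 with no overlap, at -0.11 ± 0.05 (adjusted p = 0.146), and passed with the block (adjusted p = 0.0217, in a range of 0.0118 to 0.791). Zeb2 and Cdh2 were the 2 of 6 members tested in 1014-Grpr without overlap, beside 40.9% of all genes. In 1064 the block brought in Snai2, at 16.7, 12.4 and 12.2 CPM under mock and 20.1, 17.5 and 14.3 under GRP, with a log2 fold change of 0.33 ± 0.08 (adjusted p = 0.00685, in a range of 0.00685 to 0.769), where 43.5% of all genes passed. Without the block it was 0.33 ± 0.20 (adjusted p = 0.386). In bulk libraries none of these shifts says how many cells moved. The study's methods describe its cell culture experiments as biologically replicated, while the labels do not tie these libraries to separate cultures.

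**Figure D4:**
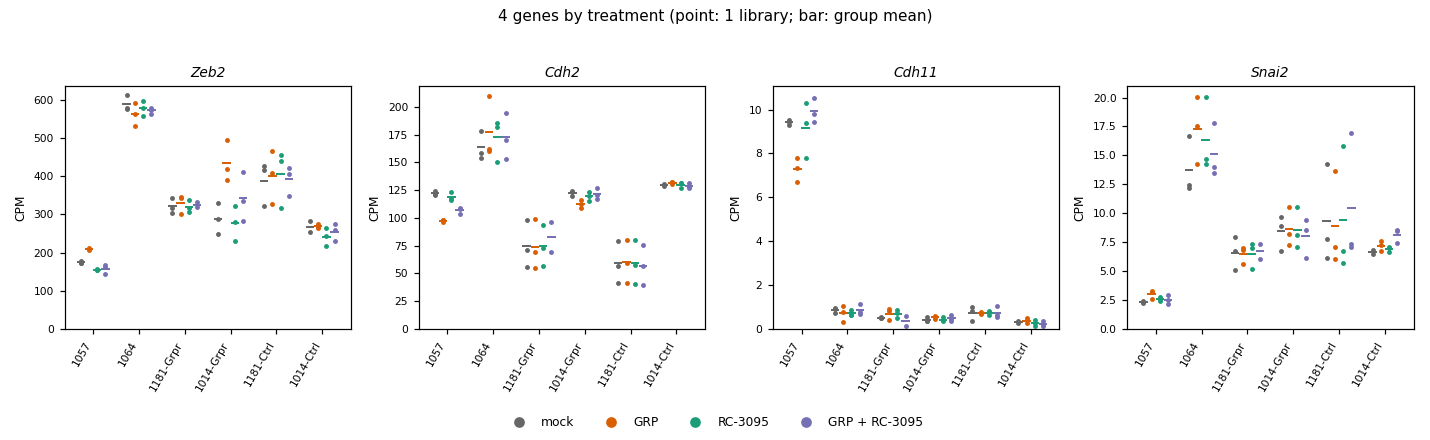
CPM of Zeb2, Cdh2, Cdh11 and Snai2 (y axes from 0) in 6 lines under mock, GRP, RC-3095 and both, with 1 point for each library used and a bar for each group mean. In 1057 the GRP points of Cdh2 and Cdh11 lie below the mock points and those of Zeb2 above them, and in 1014-Grpr the GRP points of Zeb2 lie above the mock points.

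With RC added to GRP in 1057, the means of these 4 genes all moved back towards mock. The 4 were picked by the difference of the same GRP libraries from mock, so some movement back was built into that choice. Of the 7 members tested, 3 passed, all among these 4, in a comparison that 24.7% of all genes passed. That share is over all genes tested and not over those that changed under GRP. The mean of Snai2 lay between those of mock and GRP alone, but the gene did not pass (log2 -0.28 ± 0.14, adjusted p = 0.152). Its libraries under both agents overlapped those under GRP alone. Cdh11 returned to 9.43, 10.5 and 9.82 CPM under both agents, a log2 fold change of 0.43 ± 0.09 from GRP alone (adjusted p = 0.00212). Zeb2 came to 145, 161 and 166 CPM, at -0.43 ± 0.04 (adjusted p = 6.16e-07). That was below its mock level by 0.14 ± 0.04 on the log2 scale (adjusted p = 0.0112), in a comparison that 44.3% of all genes passed, but not without replicate 1 (0.0708) or replicate 2 (0.0558), in a range of 0.00106 to 0.609. Cdh2 came back in part, to 108, 109 and 104 CPM. It was 0.11 ± 0.03 above GRP alone (adjusted p = 0.0192), which did not pass without any 1 replicate (0.0568, 0.104 and 0.0973 in a range of 0.0192 to 1), and it stayed below mock by a log2 fold change of -0.19 ± 0.03 (adjusted p = 9.15e-05).

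RC on its own lowered Zeb2 in 1057, from 173.1, 172.7 and 178 CPM to 154, 154 and 157. The log2 fold change was -0.18 ± 0.04 (adjusted p = 0.00511), in a comparison that 24.3% of all genes passed, and it did not pass without replicate 2 (0.0611, in a range of 6.69e-05 to 0.941). Over all 6 lines this was the 1 of 38 pairs of member and line that passed for RC alone. In 1014-Grpr, Zeb2 came to 282, 336 and 411.5 CPM under GRP+RC, between its mock and GRP levels for each replicate number. Against GRP alone that was -0.36 ± 0.15 (adjusted p = 0.167), where 11.8% of all genes passed, and with the block -0.36 ± 0.04 (adjusted p = 4.23e-07), where 38.7% passed, in a range of 4.23e-07 to 0.487 over the alternatives. Cdh1 in that line was 0.69 ± 0.45 above GRP alone (adjusted p = 0.378), or 0.65 ± 0.20 with the block (adjusted p = 0.0125, in a range of 0.0125 to 0.764). No member passed this comparison in 1064 or 1181-Grpr, where 0.029% and 0% of all genes did without the block. With the block no member passed there either. In 1064, DESeq2 called 58 of 13794 genes in this comparison and no member.

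The ratio of Zeb2 to Zeb1, whose proteins share DNA targets, was followed across treatments. In 1057 it was 1.79 ± 0.101 (SD, n = 3, in TPM) under mock, 2.07 ± 0.0636 under GRP, 1.49 ± 0.0494 under RC and 1.56 ± 0.0937 under both. In 1014-Grpr it was 9.96 ± 3.22 under mock and 16.3 ± 4.28 under GRP. These libraries overlapped (7.43 to 13.6 against 12.8 to 21.1), while within each replicate number the ratio was higher under GRP. In 1064 it was 67.8 ± 10.9 under mock and 56.3 ± 16.2 under GRP, which overlapped, and it was lower under GRP within each replicate number. Where the ratio rose in 1057 it still stayed below that of every other line.

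Among 15 other cadherins, the change under GRP in 1057 was larger than in any member. Of 8 tested there, 2 were called higher, where 6.46% of all genes were called. They were Cdh6 (log2 1.33 ± 0.04, adjusted p = 6.47e-15) and Cdh9 (log2 2.28 ± 0.27, adjusted p = 8.33e-07). Cdh6 rose from 107 ± 5.05 to 255 ± 4.25 TPM (SD, n = 3), and Cdh9 from 0.207 ± 0.0404 to 0.997 ± 0.178. In 1064, Cdh6 rose from 12.7 ± 5.74 to 36.7 ± 9.61 TPM (log2 1.63 ± 0.38, adjusted p = 0.033). It was at 0 to 2 counts in each mock and GRP library of the other 4 lines. The sum of 19 cadherins in 1057 thus went from 251 ± 17.4 to 381 ± 6.32 TPM, and the share of Cdh2 in it from 18.2% ± 0.572 to 9.23% ± 0.239. Under GRP+RC the sum was 356 ± 22.8 TPM and the share 10.8% ± 0.721.

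Of 8 catenins and related genes, which tie cadherins to actin, 5 were tested under GRP in 1057, none was called and 2 passed as lower, where 52.6% of all genes passed. Jup (plakoglobin) was among them, from 158 ± 5.45 to 106 ± 1.56 TPM (log2 -0.50 ± 0.03, adjusted p = 1.54e-10). At mock Jup was high in both lines with Cre (158 and 198 TPM), intermediate in the 1181 lines (34.3 and 30.5) and low in the 1014 lines (1.74 and 0.933), so its level did not follow that of Cdh1.

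Of 15 other transcription factors of EMT or their partners, 11 were tested under GRP in 1057. There 2 were called higher, and by adjusted p alone 5 were higher and 5 lower, beside the 6.46% and 52.6% of all genes given above. The called genes were Id1 (log2 1.42 ± 0.24, adjusted p = 6.07e-05) and Id3 (log2 1.47 ± 0.11, adjusted p = 3.91e-09), which encode inhibitors of bHLH factors such as TWIST1. No gene of this list was called under GRP in 1064, 1181-Grpr or 1014-Grpr, with 11, 12 and 10 tested. Of all genes there, 2.32%, 0% and 4.01% were called. Prrx1, a mesenchymal homeobox factor, stood at 21.3 ± 0.855 TPM at mock in 1057, at 1.33 or less in the others and at 0 in both 1014 lines.

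Of 10 mesenchymal genes, 7 were tested in 1014-Grpr under GRP, 3 were called higher and 5 passed as higher. Of all genes there, 4.01% were called and 29% passed. Each of these 3 genes was called in 1 line with GRPR only. The called genes were Itga5, the fibronectin receptor subunit (86.9 ± 3.89 to 218 ± 23.5 TPM, log2 1.43 ± 0.08, adjusted p = 6e-07), Col5a1 (log2 1.15 ± 0.17, adjusted p = 0.000421) and Tagln (log2 2.60 ± 0.47, adjusted p = 0.00145), which stayed at 1.35 ± 0.345 TPM. Of 19 epithelial genes, 3 or fewer were tested in each line under GRP. In 1057, 2 of 3 passed as lower, where 52.6% of all genes passed. The immune gene Cd68 was the one gene of its list tested. Its list had a log2 fold change of 1.99 in 1057 and 1.33 in 1014-Grpr under GRP, both called, with the leukocyte marker Ptprc averaging 0.0192 TPM or less in every line.

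The same lists were compared between the lines at mock, in the contrast of lines with Cre against control-vector lines, where 28.6% of all genes were called. Here too the p-values cover the spread between libraries only, and not that between tumours. There 10 of the 15 other cadherins were tested, 2 were called higher and 1 lower. Cdh6 and Cdh5 (VE-cadherin) were higher and Cdh24 was lower (log2 -2.42 ± 0.20, adjusted p = 2.22e-15). Of 7 catenins and related genes tested 2 were called higher and 3 lower, and of 12 transcription factors and partners 4 higher and 3 lower, with Lef1, a partner of beta-catenin, at log2 4.89 ± 0.29 (adjusted p = 1.24e-20). Of 5 epithelial genes tested 1 was called in each direction. Of 10 mesenchymal genes 1 was called higher, Sparc (log2 3.59 ± 0.19, adjusted p = 7.05e-23), and 1 lower, Col5a1 (log2 -2.33 ± 0.25, adjusted p = 2.1e-11). The melanocyte list had 8 of 8 genes tested, with 2 called higher and 1 lower.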

How the data were processed

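RNA was sequenced in 72 libraries of 6 lines, 4 treatments and 3 replicates, grouped by the labels. Per the paper's methods, libraries were stranded and polyA-selected, and reads were aligned with STAR. The submitters' processing notes name FastQC 0.11.5, STAR, mm10 and GRCm38.p5. The authors deposited raw counts per gene, used for all tests, and TPM, used to compare genes and as an alternative. The TPM columns of 1057 have a decimal comma, read as a decimal point. Of 50600 gene identifiers, 50376 matched a symbol.

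Within each line, all treatments were fitted together on the whole table with edgeR 4.0.16 (TMM, filterByExpr, quasi-likelihood test, Benjamini-Hochberg adjustment over all genes tested) in R 4.3.3. Lines were compared at mock in 1 fit of all 70 libraries, and the GRP effects of a Grpr line and its control in 1 fit of both. A gene passed at an adjusted p under 0.05 and was called if its log2 fold change was also beyond 1 either way. CPM used TMM factors over 72 libraries. Ratios of counts have exact 95% intervals, which cover counting error only. The 70 libraries used held 19512882 to 46862053 counts. The 2 libraries that went against their labels were left out. No 2 replicates differed by as little as sampling noise (68 pairs, lowest chi-square per degree of freedom 2.56).

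Same-numbered libraries deviated together in 5 of 6 lines (lowest correlation 0.577), so the replicate number was fitted as a block beside the unblocked test. They did not in 1057 (lowest -0.46) or between lines (lowest -0.213). Alternatives were the block, DESeq2 1.42.0, RLE normalization, no filter, TPM with limma 3.58.1 (log2, pseudocounts 0.1 and 1), both libraries kept, each replicate left out, another set of samples in the fit, and adjusted p alone. The scripts were tested on simulated data.

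The 10 members and all gene lists were chosen with earlier results of these data known. Named beside the members were up to 3 genes per list called in most lines with GRPR under GRP, and up to 3 per list with the largest difference between lines with Cre and control-vector lines, though Klf8, Ctnna3, Ctnnd2, Esrp1 and Esrp2 are left to their list counts. Cdh19, Cd68, Ptprc and Cd3e were named after their values were seen.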

Additional observations from a re-analysis of the deposited data

Results flagged for a closer look

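The effect of GRP on Zeb2 differed between 1014-Grpr and 1014-Ctrl, by 0.61 on the log2 scale, in a test of the difference itself (edgeR, adjusted p = 0.0429). Of all genes, 16.8% passed this test. Zeb2 passed in 6 of 12 alternatives (adjusted p from 1.27e-05 to 0.226), and in none of the fits with a replicate left out.

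Under GRP, Cdh2 lay below mock in every library of 1057 and 1014-Grpr and above mock in every library of 1014-Ctrl. The mean under GRP minus that under mock was -24.8 CPM in 1057 and -9.76 CPM in 1014-Grpr, and 2.16 CPM in 1014-Ctrl. In 1064 and 1181-Grpr it was 13.95 and -1.0 CPM, and the libraries overlapped. Groups did not overlap for 57.9% of all genes in 1057, 40.9% in 1014-Grpr and 12.6% in 1014-Ctrl. The difference of the GRP effect on Cdh2 between 1014-Grpr and 1014-Ctrl was -0.13 ± 0.06 on the log2 scale and did not pass (edgeR, adjusted p = 0.169, or 0.1 with the replicate block, in a range of 0.00959 to 0.922 over the alternatives, of which the fits of TPM passed). That between 1057 and 1014-Ctrl was not tested.

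The 2 libraries that were left out held some members above the level of their labelled group and others below it. The library labelled 1014-Ctrl mock replicate 2 held 550 counts of Cdh1, 13 of Cdh11, 824 of Zeb1, 7742 of Zeb2 and 29 of Twist2, and its Cdh2 was at 58.2 CPM, where the other mock libraries of that label had 129 and 130.3. The library labelled 1181-Grpr GRP+RC replicate 2 held 3309 counts of Cdh2, 5 of Snai1 and 210 of Snai2, and its Cdh1 was at 4.60 CPM, where the other GRP+RC libraries of that label had 16.9 and 11.8.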

How the results depend on the processing

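Of 143 alternative values for the counts of called members, 126 stayed within 1.5 times the reported count. By adjusted p alone, 5 pairs of member and line passed for GRP against mock in the lines with GRPR, 3 for GRP+RC against GRP, 2 for GRP+RC against mock, 1 for RC against mock and 1 for the difference of the GRP effect, where 0 were called. That last count was also 1 with no filter on low counts, and 0 to 1 when each replicate was left out. For 1181-Ctrl against 1014-Ctrl, 5 members were called, and 1 with both libraries kept, 2 with the replicate block and both kept, 3 by TPM with a pseudocount of 1, 3 with other samples in the fit, and 3 to 4 with a replicate left out. For 1014-Grpr against 1014-Ctrl, 2 were called with both libraries kept, with or without the block. By TPM, 1 was called for 1181-Grpr against 1181-Ctrl (pseudocount 0.1), and 2 in place of 4 for lines with Cre (pseudocount 1). Twist2 depended on these choices. Between 1014-Grpr and 1014-Ctrl it had 0 counts in every mock library used, and so no direction in the reported fit. Its log2 fold change became -6.49 with both libraries kept and -6.48 with the block as well, since the library labelled 1014-Ctrl mock replicate 2 held 29 counts of it and the other mock libraries of that line 0. For lines with Cre it changed sign, to -2.39 and -2.39 in these fits, and to -0.80 and -0.38 by TPM with pseudocounts of 0.1 and 1. Otherwise the cause was not tested.

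The replicate block changed no call, but with it some members passed that did not pass without it, as given with the results. It also brought past the threshold Zeb2 for GRP+RC against mock in 1014-Grpr (log2 0.24 ± 0.04, adjusted p = 0.000226). At mock, where numbers do not pair the lines, it also brought past the threshold Cdh2 between 1057 and 1064 (log2 -0.41, adjusted p = 0.0335), Zeb2 between 1181-Grpr and 1181-Ctrl (log2 -0.27, adjusted p = 0.0338) and Snai2 for lines with Cre (log2 -0.47, adjusted p = 0.021). Of 1611 alternative values for single members, 1526 kept their direction and side of the threshold, 79 changed side and 6 were counted as reversed. Of these 6, 2 were for Twist2 between 1014-Grpr and 1014-Ctrl, where the reported fit gave no direction. Depth limits Cdh3 everywhere, Cdh1 in 1057 and 1064, and Twist1 and Twist2 outside the lines that held them.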

Other observations

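The genes whose levels moved most like each member were ranked by Pearson's r of log2 CPM, centred within each line, over 70 libraries and 16900 other genes. The libraries share lines, treatments and replicate numbers, so r is a description. For Cdh2 the closest were Gm4430 (0.883), Smarce1 (0.88) and Actl6a (0.855). For Snai2 they were Rangap1 (0.801), Sulf1 (0.798) and Hnrnpll (0.789). For Cdh1 they were Disp1 (0.737), Cdo1 (0.72) and Rogdi (0.705). For Zeb1 they were Igf2r (0.728), Tpi1 (0.722) and Pgk1 (0.721), and for Zeb2 Plpp1 (0.726), Stxbp3 (0.723) and Mid2 (0.696). For Cdh11, Snai1, Twist1 and Twist2 the highest r was 0.578, 0.458, 0.428 and 0.501.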
